A study of Mus musculus with 6 samples.

Results

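The enzymes and complexes that write, erase and read marks on histones, or move nucleosomes, were followed in mouse intestinal organoids that lack Apc, and in organoids that lack Apc and are labelled as overexpressing IGF2BP3. Members were taken by gene symbol from 9 families: lysine demethylases (Kdm), lysine methyltransferases (Kmt and Setd), lysine acetyltransferases (Kat), histone deacetylases (Hdac), bromodomain proteins (Brd), SWI/SNF-related subunits (Smarc), chromodomain helicases (Chd) and ARID proteins (Arid), leaving out Kdm5d. The symbols matched 97 of the 52249 genes in the deposited table, of which 90 are annotated as protein-coding. Intestinal organoids are epithelial cultures grown from crypt cells, Apc is the tumour suppressor that restrains WNT signalling, and IGF2BP3 is an RNA-binding protein. The control group held 3 libraries with the genotype Apc-knockout, and the OE group (OE for overexpression) held 3 libraries with the Apc knockout together with IGF2BP3 overexpression. All 6 libraries therefore carried the Apc knockout, and no library without it was analysed here. The labels do not give the intestinal segment, the age of the mice, how the knockout was made, how IGF2BP3 was expressed or whether the replicates were separate cultures, so that p-values measure the spread between these libraries, which may be technical.

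Histone tails carry methyl and acetyl groups on lysines, which are placed and removed by enzymes of opposite activity and recognised by reader domains such as bromodomains and chromodomains. Remodellers of the SWI/SNF, ISWI and CHD classes use ATP to slide or eject nucleosomes, and most of these proteins act within large complexes in which related subunits can replace each other. In the intestinal epithelium such complexes take part in the balance between crypt stem cells and their differentiating daughters, and several of them are mutated in colorectal tumours.

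Total counts ran from 2180087 to 2519886 per library, and 3 counts, the floor used here, corresponded to between 1.18 and 1.41 CPM (counts scaled to a common library size after TMM normalisation). For Igf2bp3 itself 1, 0 and 0 counts were recorded in control replicates 1 to 3 and 1, 0 and 0 in OE replicates 1 to 3. The counts thus gave no check of the overexpression, and OE stands for the label throughout. Apc, counted from its 3′ end, was present in both groups, at 83.9, 81.6 and 75.6 CPM in control and 64, 59.4 and 62.6 CPM in OE libraries. It was called lower in the OE group (log2 fold change -0.37, SE 0.12, edgeR adjusted p = 0.0323). As every library carries the knockout, and a 3′ count can lie outside a deleted part, these counts give no check of the knockout. The library names place the control libraries in one series and the OE libraries in another, so a difference between these series and a difference between the groups cannot be told apart. Of 7 epithelial markers 6 passed the count filter, while Cdx1 was at 0 counts in every library. The summed level of 9 goblet cell markers was 596 to 622 CPM in control and 1279 to 1495 CPM in OE libraries, with 3 of them higher, and the 7 epithelial markers summed to 3879 to 4104 and 5209 to 5930.4 CPM. The part of cell composition in the differences below was not tested, and in bulk libraries fewer cells of a type and less RNA per cell cannot be told apart. Markers of other tissues were low: all 7 fibroblast and all 4 endothelial markers stayed at or below 3 counts in every library, with summed levels of at most 3.28 and 1.38 CPM, and 7 immune markers summed to 13.6 to 18.9 CPM in control and 16.9 to 20.3 CPM in OE libraries. Of the intestinal lineages, 4 of 5 enteroendocrine, 3 of 5 Paneth cell and 5 of 7 enterocyte markers were at 0 counts in all libraries. Paneth cell markers summed to 31.3 to 34.6 CPM in control and 57.9 to 86.5 CPM in OE libraries, and enterocyte markers to 68 to 69.1 and 95.6 to 117 CPM. Of these, 4 of 5 Paneth cell and 6 of 7 enterocyte markers stayed at or below 3 counts in every library. Each of these sums thus rests almost wholly on 1 marker, which was higher. The 4 tuft cell markers summed to 142 to 156 CPM in control and 182 to 219 CPM in OE libraries, with 1 marker higher. The 6 stem cell markers summed to 72.4 to 83.9 CPM in control and 76.6 to 109 CPM in OE libraries, with overlapping ranges and 1 marker higher.

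Most of the chromatin genes that changed were lower in the OE libraries. Of the 83 members that passed the count filter, 24 fell and 5 rose at an edgeR adjusted p below 0.05, and 54 did not pass. The share that fell was 28.9%, where 12.7% of all 10687 genes tested fell, and the share that rose was 6.02%, where 16.5% of all genes rose. The share called in either direction, 34.9%, lay near the background of 29.2%. The median log2 fold change of the members was -0.20, beside 0.0408 for all genes tested. A positive value was found for 25 of the 83 members and for 5663 of the 10687 genes tested. Changes were moderate in size: 3 members changed at least 2-fold, all of them lower, namely Kdm4c, Kmt5b and Smarcad1, where 5.38% of all genes tested were called at that size. With DESeq2, 19 members were lower and 2 higher, against 8.84% and 9.7% of all genes. The CPM ranges of the groups were apart for 43 members (51.8%), against 45.7% of all genes tested, with 32 of the members below and 11 above the control range. Over all 10687 genes tested, 2186 lay below and 2703 above it. In the Kdm, Kmt, Setd, Brd and Chd families, where no member rose, no positive value had an unadjusted edgeR p below 0.05 and DESeq2 called none higher.

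**Figure D1:**
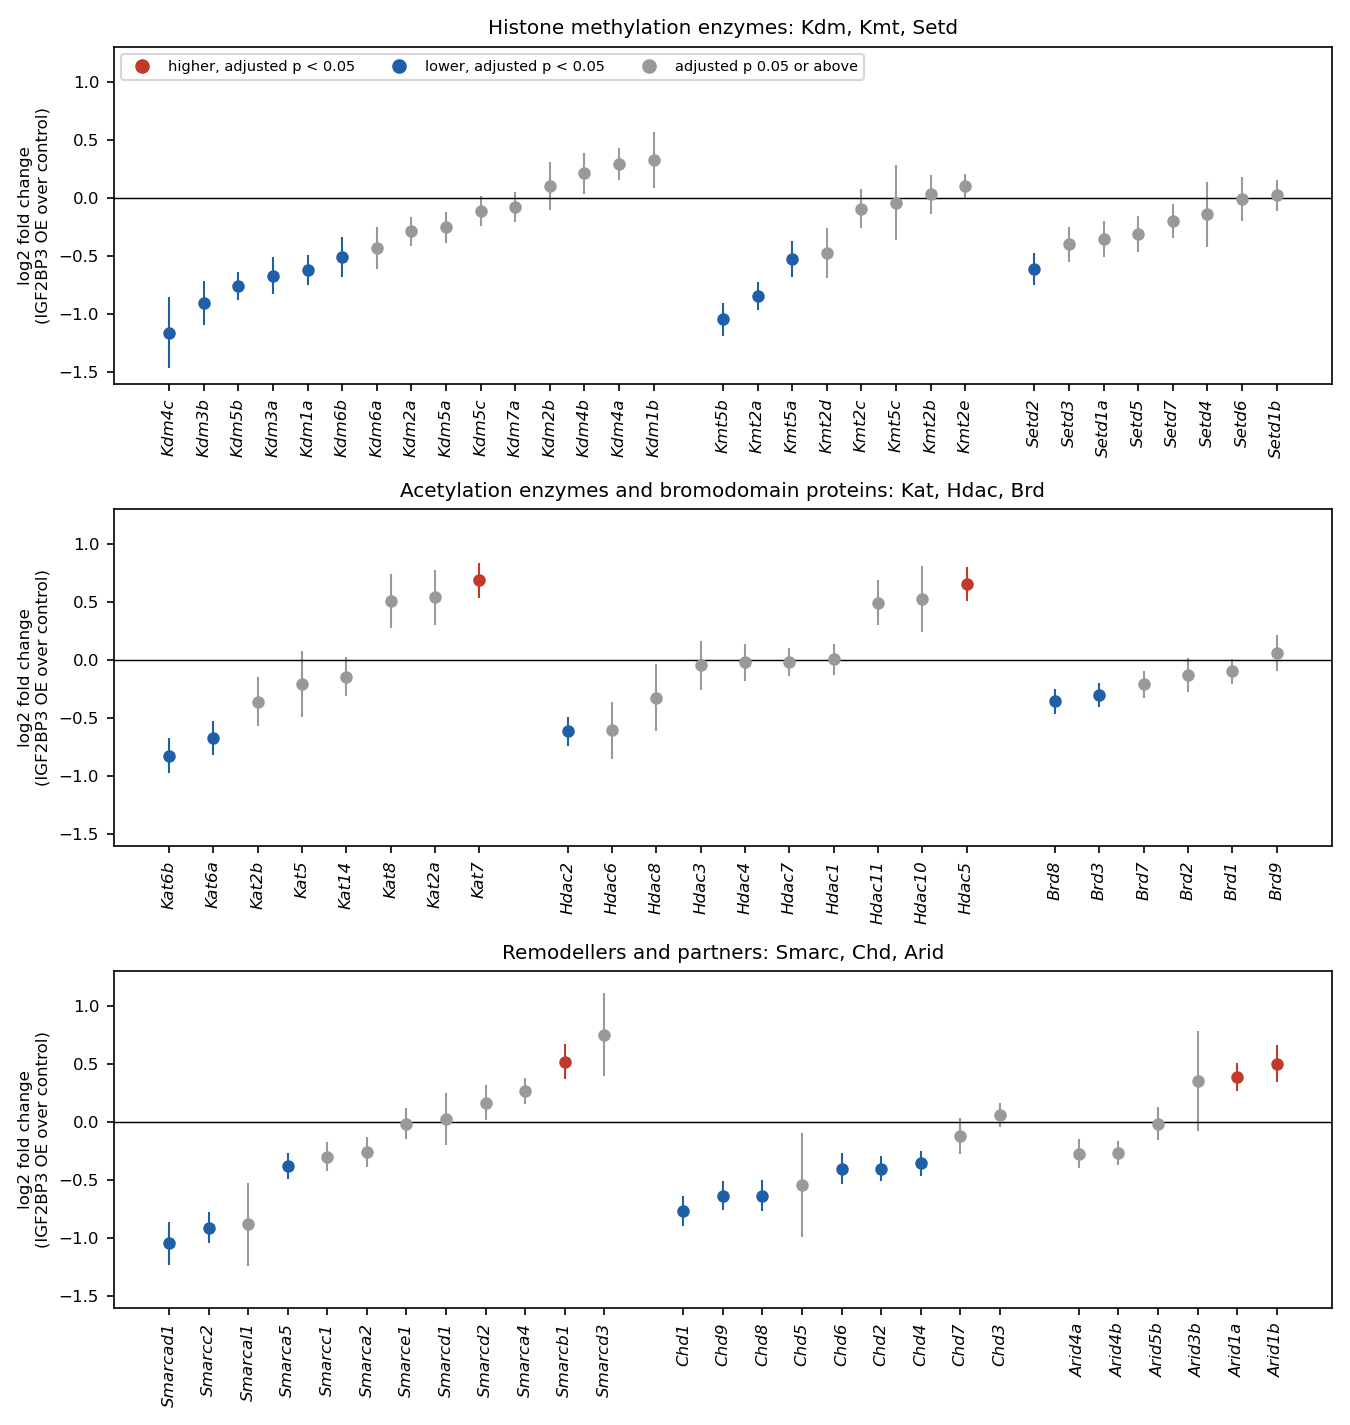
Log2 fold change (OE over control, y axis) of 82 tested members in 3 panels by function, each family ordered by its value. Points are edgeR estimates, bars are standard errors, and colours mark members past an adjusted p of 0.05. Blue points (24, lower) outnumber red points (5, higher), and no Kdm, Kmt, Setd, Brd or Chd member is red.

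The remaining 14 members were too low to be tested. No count was recorded in any library for Arid3c, Kdm4dl, Kat2b-ps, Kat6b-ps1, Kat6b-ps2 and Smarce1-ps1, and Hdac9, Kdm4d, Kdm6bos, Kdm8, Smarca1 and Smarca5-ps had at most 3 counts in any library. Arid3a had 7, 11 and 5 counts in control and 6, 3 and 2 in OE libraries, and Arid5a had 8, 7 and 3 in control and 6, 10 and 6 in OE libraries. The symbols ending in ps and Kdm4dl are pseudogenes, and Kdm6bos is transcribed antisense to Kdm6b. Of the tested members, Brd3, Chd2, Chd4, Hdac5, Kat14, Kdm2b, Setd1a, Smarca4 and Smarca5 overlap another gene on the same strand, and 29 members overlap one on the opposite strand. Whether counting used strand is not given in the sources used here.

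Promoter sequence was read for the members that moved, because the title of the study names MYC, and MYC with its partner MAX binds the E-box CACGTG. RefSeq windows (GRCm38.p6, 250 bases before to 50 bases after a start site) were held for 63 of the 83 tested members, in 89 windows. The E-box CACGTG, which reads the same on both strands, was present in 4 of these windows (4.49%), against 7.15% of all 32851 windows and 10.5% of the windows of all tested genes. Among the members that rose it stood in 1 of 6 windows (Hdac5), and among those that fell in 1 of 28 (Kdm4c). These are windows of 5 members that rose and of 18 of the 24 that fell, some of them overlapping. The other lower members had no window and were not examined. The GC box GGGCGG, searched on both strands with overlapping copies counted, was present in 62 windows (69.7%), against 35.7% of all windows and 64.5% of those of tested genes. It stood in 5 of 6 windows of members that rose and in 22 of 28 of members that fell. TATAAA, searched on both strands, was present in 3 windows (3.37%, against 6.92% for tested genes), none of them of a member that rose or fell. A match is only a string of letters in the window.

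Of the sequences below, Kdm4c and Hdac5 are shown as the called members with an E-box in a window held here. Kmt2a is shown as a strongly lowered member with several GC boxes, and Kat7 as the raised member with neither string. The windows lie at chr4:74251629-74251928 (plus strand) for Kdm4c, chr11:102230123-102230422 (minus strand) for Hdac5, chr9:44881240-44881539 (minus strand) for Kmt2a and chr11:95310197-95310496 (minus strand) for Kat7. Each reads 5′ to 3′ along the gene, and capitals mark CACGTG and GGGCGG or its reverse complement CCGCCC.
Kdm4c: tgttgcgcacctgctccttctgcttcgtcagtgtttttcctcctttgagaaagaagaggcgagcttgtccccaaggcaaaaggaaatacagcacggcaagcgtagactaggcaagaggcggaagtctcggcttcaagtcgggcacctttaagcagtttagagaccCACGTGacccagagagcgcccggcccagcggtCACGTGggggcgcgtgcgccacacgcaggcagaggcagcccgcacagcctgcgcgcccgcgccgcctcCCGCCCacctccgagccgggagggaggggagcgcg
Hdac5: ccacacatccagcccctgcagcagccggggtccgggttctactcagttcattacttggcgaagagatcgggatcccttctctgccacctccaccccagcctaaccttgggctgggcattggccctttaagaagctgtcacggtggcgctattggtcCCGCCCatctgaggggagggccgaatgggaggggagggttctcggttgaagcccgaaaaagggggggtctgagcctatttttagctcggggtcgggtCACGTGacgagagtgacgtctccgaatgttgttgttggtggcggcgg
Kmt2a: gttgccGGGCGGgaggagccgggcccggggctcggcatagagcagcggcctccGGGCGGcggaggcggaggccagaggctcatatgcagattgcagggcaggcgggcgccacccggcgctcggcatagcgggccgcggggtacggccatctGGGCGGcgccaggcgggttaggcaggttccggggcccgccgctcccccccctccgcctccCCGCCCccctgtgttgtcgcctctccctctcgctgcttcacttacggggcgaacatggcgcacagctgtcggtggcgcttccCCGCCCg
Kat7: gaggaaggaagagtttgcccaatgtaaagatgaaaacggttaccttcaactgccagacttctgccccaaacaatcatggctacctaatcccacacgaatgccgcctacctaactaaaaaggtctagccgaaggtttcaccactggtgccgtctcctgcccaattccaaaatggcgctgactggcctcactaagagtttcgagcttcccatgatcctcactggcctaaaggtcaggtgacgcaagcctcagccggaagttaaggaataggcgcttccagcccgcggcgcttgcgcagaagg
The Kdm4c window holds 2 E-boxes and 1 GC box, and is the downstream of 2 windows listed for the gene. The Hdac5 window holds 1 E-box and 1 GC box. The Kmt2a window holds 5 GC boxes and 36 CpG dinucleotides, and that of Kat7 0 GC boxes and 14 CpG dinucleotides. The median over the windows of tested members was 27 CpG dinucleotides, against 21 for all tested genes.

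Among the histone lysine demethylases, which remove methyl groups from histone tails, 6 of 15 tested members fell and 0 rose. These shares were 40% and 0%, beside 12.7% and 16.5% of all genes. Kdm5b, which removes methyl groups from H3K4, a mark of active promoters, had the smallest p (ENSMUSG00000042207, plus strand of chromosome 1, 134560171 to 134635285 in GRCm38). It was counted at 158, 165 and 151 CPM in control replicates 1 to 3 and at 105, 82.2 and 92.6 CPM in OE replicates 1 to 3, a log2 fold change of -0.76 (edgeR adjusted p = 0.000791, SE 0.12). Every OE library lay well below the lowest control library. Kdm3b, an H3K9 demethylase, was counted at 33.6, 29.6 and 30.9 CPM in control and 16.6, 13.8 and 19.9 CPM in OE libraries, a change of -0.91 (edgeR adjusted p = 0.00393, SE 0.19). Its relative Kdm3a had a log2 change of -0.67 (edgeR adjusted p = 0.00797, SE 0.16). The flavin-dependent H3K4 demethylase Kdm1a (LSD1) went from 71.5 ± 5.31 to 46.4 ± 3.58 CPM (SD, n = 3), a change of -0.62 (edgeR adjusted p = 0.00401, SE 0.13). Kdm4c, an H3K9 and H3K36 demethylase, was at 14.7, 10.8 and 10.1 CPM in control and 6.08, 3.54 and 6.34 CPM in OE libraries, on only 22 to 32 and 9 to 15 counts. The difference, -1.16 (edgeR adjusted p = 0.0132, SE 0.30), was the largest fold among the demethylases. Its call was lost with DESeq2 (adjusted p = 0.0505). Kdm6b, which demethylates H3K27, the polycomb mark, fell by 0.51 on the log2 scale (edgeR adjusted p = 0.0407; DESeq2 adjusted p = 0.0847), and its exons overlap those of the antisense gene Kdm6bos, which had at most 1 count.

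The most abundant demethylase, the H3K36 enzyme Kdm2a, did not pass, with 171, 180.1 and 164 CPM in control and 163, 129 and 130.2 CPM in OE libraries (log2 fold change -0.29, SE 0.12, edgeR adjusted p = 0.0895). Kdm5a, at 159, 161 and 161 CPM in control and 135, 109 and 160.2 CPM in OE libraries, overlapped between groups (edgeR adjusted p = 0.177), and the X-linked Kdm5c and Kdm6a had log2 fold changes of -0.11 and -0.43 (edgeR adjusted p = 0.552 and 0.0905). Positive values, none past the threshold, were those of Kdm1b (0.33), Kdm4a (0.29), Kdm4b (0.21) and Kdm2b (0.10). Kdm7a stood at -0.0757.

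Of the 8 Kmt methyltransferases, 3 fell and 0 rose (37.5% and 0%, beside 12.7% and 16.5% of all genes). Kmt5b, one of the enzymes that add further methyl groups to H4K20, had the smallest p of all members (ENSMUSG00000045098, plus strand of chromosome 19, 3767421 to 3818303). It was counted at 77, 61 and 68.6 CPM in control and 32.8, 35 and 32.1 CPM in OE libraries, a log2 fold change of -1.05 (edgeR adjusted p = 0.000339, SE 0.14). All OE libraries lay below every control library, and they differed little from each other. Kmt5a, which places the preceding single methyl group on H4K20 and is needed for chromosome condensation, was counted at 236, 226 and 231 CPM in control and 116, 180.1 and 187 CPM in OE libraries, a change of -0.52 (edgeR adjusted p = 0.0237, SE 0.15). OE replicate 1 was the lowest library, and the other OE libraries also lay below control. The related H4K20 enzyme Kmt5c overlapped between groups, at 14.7, 16 and 22.1 CPM in control and 17.8, 24.8 and 8.46 CPM in OE libraries (log2 fold change -0.0404, SE 0.32, edgeR adjusted p = 0.939).

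Kmt2a (MLL1), an H3K4 methyltransferase that maintains expression of HOX genes, had 198, 208 and 200.4 CPM in control and 109, 98.3 and 131 CPM in OE libraries, a change of -0.84 (edgeR adjusted p = 0.000517, SE 0.12). Its identifier and position are ENSMUSG00000002028, minus strand of chromosome 9, 44803355 to 44881296. The highest OE library lay well below the lowest control library. Its closest relative, Kmt2b, was counted at 41.9, 36.6 and 29.9 CPM in control and 39.7, 38.5 and 32.6 CPM in OE libraries (log2 fold change 0.0317, SE 0.17, edgeR adjusted p = 0.908). The enhancer H3K4 methyltransferases Kmt2c and Kmt2d had values of -0.0917 and -0.47 (edgeR adjusted p = 0.713 and 0.114). Kmt2e, the most abundant Kmt member, was at 349, 374 and 371 CPM in control and 424, 344 and 408 CPM in OE libraries (log2 fold change 0.10, SE 0.11, edgeR adjusted p = 0.498).

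Among the 8 Setd genes only Setd2, the enzyme that trimethylates H3K36 along transcribed genes, passed (12.5%, beside 29.2% of all genes). It was counted at 104, 107 and 137 CPM in control and 75.8, 69.2 and 83.3 CPM in OE libraries, a log2 fold change of -0.61 (edgeR adjusted p = 0.00591, SE 0.14). Its call was lost when GC and length offsets were applied together (-0.36, edgeR adjusted p = 0.075), an alternative chosen after seeing the data. Setd3, an actin histidine methyltransferase, stood at -0.40 (edgeR adjusted p = 0.0633) and Setd1a, an H3K4 enzyme of the COMPASS complex, at -0.35 (edgeR adjusted p = 0.105), both with ranges apart. Setd1a overlaps Gm49388 on the same strand, with 5 fractional values, and its counts are uncertain. The most abundant member, Setd5, overlapped between groups, at 132, 153 and 177 CPM in control and 141, 95.6 and 136 CPM in OE libraries (log2 fold change -0.31, SE 0.16, edgeR adjusted p = 0.155). Setd7, Setd4, Setd6 and Setd1b lay between -0.20 and 0.0219.

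Among the acetyltransferases, 1 of 8 tested members was higher and 2 were lower (12.5% and 25%, beside 16.5% and 12.7% of all genes). Kat7 (HBO1), which acetylates H3K14 and histone H4 and takes part in the licensing of replication origins, rose from 59 ± 6.38 to 95 ± 18.1 CPM (SD, n = 3), with 55.8, 54.9 and 66.3 CPM in control and 116, 84.2 and 85 CPM in OE libraries (ENSMUSG00000038909, minus strand of chromosome 11, 95274259 to 95310246). OE replicate 1 was the highest library, and the change came to 0.69 (edgeR adjusted p = 0.00566, SE 0.15) in log2 units. Kat6a and Kat6b, which form related MOZ and MORF complexes with shared subunits and acetylate histone H3, both fell. Kat6a was counted at 77.9, 59.6 and 80.2 CPM in control and 45, 49.2 and 42.3 CPM in OE libraries, a change of -0.67 (edgeR adjusted p = 0.00508, SE 0.15), and Kat6b at 47, 46.4 and 51.1 CPM in control and 29.98, 26.3 and 25.4 CPM in OE libraries, a change of -0.82 (edgeR adjusted p = 0.00174, SE 0.15). Neither gene overlapped between groups. Kat2a and Kat8 had positive values of 0.54 and 0.51 with ranges apart that did not pass (edgeR adjusted p = 0.103 and 0.114), on 19 to 55 counts per library. Kat2b, Kat5 and Kat14 stood at -0.36, -0.20 and -0.14. Exons of Kat14 overlap those of Pet117 on the same strand and 3 of its 6 values were fractional, so its counts are uncertain.

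The histone deacetylases, which remove acetyl groups, gave 1 higher and 1 lower call among 10 tested members (20% called, beside 29.2% of all genes). Hdac2, a catalytic subunit of the NuRD, Sin3 and CoREST corepressors, was counted at 94, 89.1 and 106 CPM in control and 57.9, 65.3 and 65.5 CPM in OE libraries, a log2 fold change of -0.61 (edgeR adjusted p = 0.00336, SE 0.12). Its identifier and position are ENSMUSG00000019777, plus strand of chromosome 10, 36974544 to 37001889. Its partner and near relative Hdac1 was counted at 46.1, 51.6 and 54.8 CPM in control and 49.4, 52.3 and 51.6 CPM in OE libraries (log2 fold change 0.00751, SE 0.13, edgeR adjusted p = 0.972). The ranges overlapped. Hdac5, a class IIa deacetylase that shuttles between nucleus and cytoplasm, rose from 30.1 ± 3.45 to 47.5 ± 2.14 CPM (SD, n = 3), with 34.1, 28.1 and 28.1 CPM in control and 45.8, 46.8 and 49.9 CPM in OE libraries, a change of 0.66 (edgeR adjusted p = 0.00646, SE 0.15). With the GC offset its value was 0.35 and the call was lost (edgeR adjusted p = 0.114). Hdac7, the most abundant deacetylase, was at 212, 244 and 222 CPM in control and 220.0, 258 and 193 CPM in OE libraries (log2 fold change -0.0149, SE 0.12, edgeR adjusted p = 0.94). Hdac11 and Hdac10 had positive values of 0.50 and 0.52 and Hdac6, the tubulin deacetylase, a negative one of -0.61, none past the threshold (edgeR adjusted p = 0.0708, 0.181 and 0.0793). Hdac3, Hdac4 and Hdac8 stood at -0.0446, -0.0200 and -0.32.

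Of the 7 bromodomain genes, readers of acetylated lysine, 2 fell, both by little, and 0 rose (28.6% called, beside 29.2% of all genes). Brd8, a subunit of the TIP60-p400 complex, was counted at 109, 107 and 108 CPM in control and 83.9, 81 and 88.8 CPM in OE libraries, a change of -0.36 (edgeR adjusted p = 0.0295, SE 0.11). Brd3, a BET protein, was at 228, 209.7 and 219 CPM in control and 177, 171 and 185 CPM in OE libraries (log2 fold change -0.30, SE 0.10, edgeR adjusted p = 0.0421). Both calls were lost with DESeq2 (adjusted p = 0.0654 and 0.054), and Brd3 also with the replicate block (edgeR adjusted p = 0.0562). Brd2, another BET protein and the most abundant of the family, did not pass, at 341, 381 and 341 CPM in control and 247, 402 and 323 CPM in OE libraries (log2 fold change -0.13, SE 0.15, edgeR adjusted p = 0.553). For Brd2 the OE libraries contained both the lowest and the highest of the 6 values. The SWI/SNF subunits Brd7 and Brd9 stood at -0.21 and 0.0630, and Brd1, a scaffold of acetyltransferase complexes, at -0.0948.

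**Figure D2:**
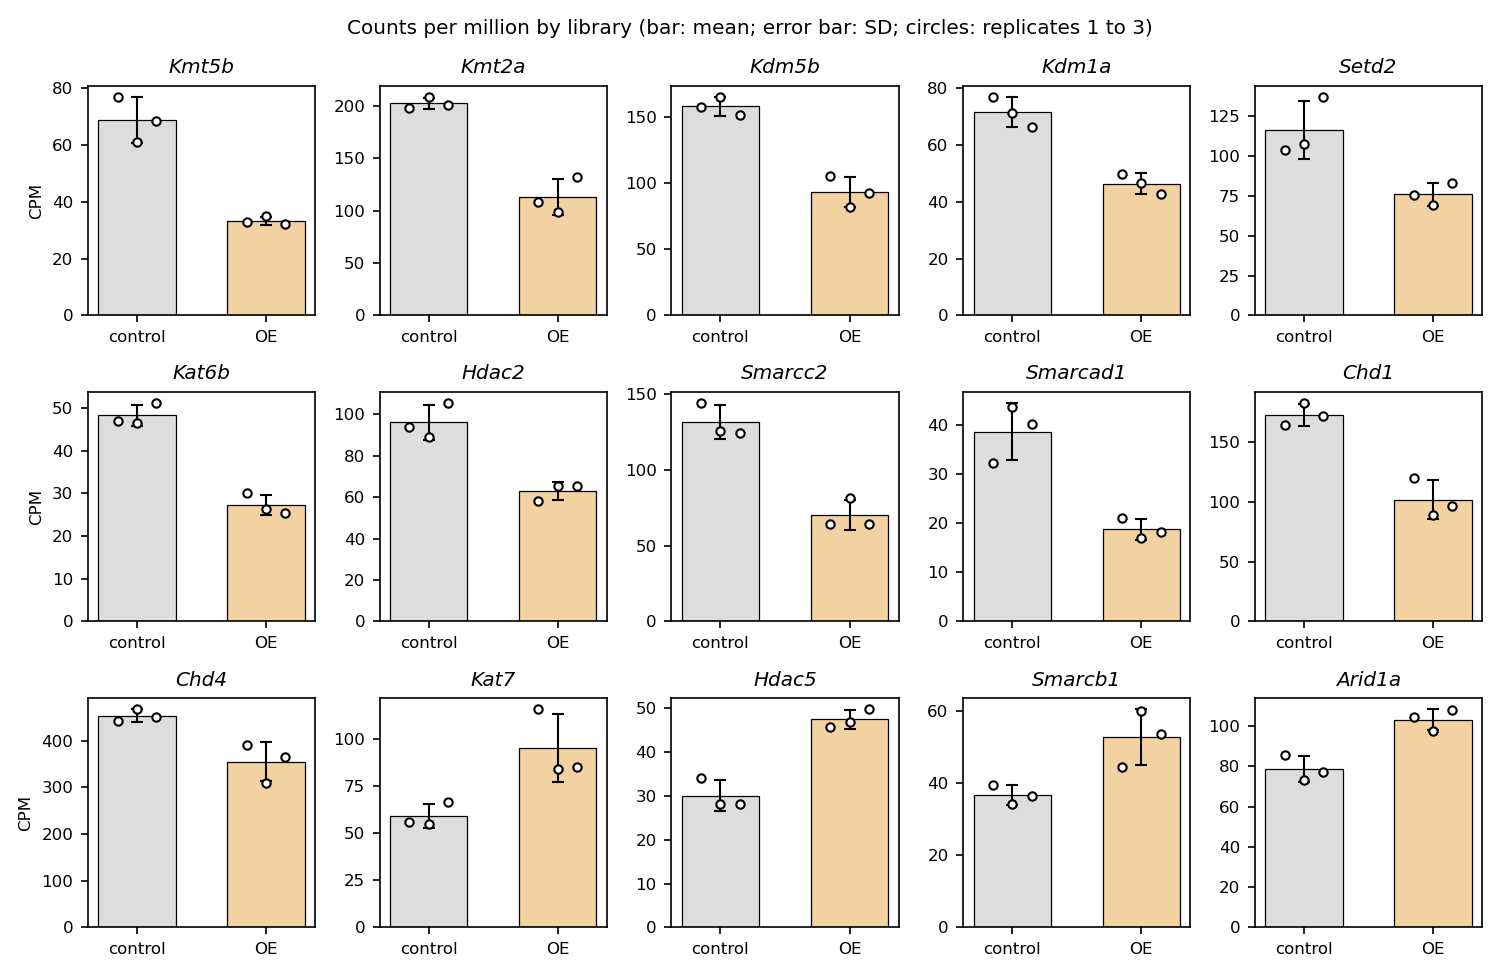
CPM (y axis, each panel from 0) of 15 members in the control and OE libraries; bars are means of 3 libraries, error bars are SD and circles are the libraries. In all 15 panels the OE circles lie on one side of the control circles: below for the 11 panels from Kmt5b to Chd4 and above for Kat7, Hdac5, Smarcb1 and Arid1a. The 15 were picked from the called members, so their separation is not a separate result. Ranges were apart for 51.8% of the tested members and 45.7% of all genes tested.

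The SWI/SNF-related genes included 1 higher and 3 lower among 12 tested (8.33% and 25%, beside 16.5% and 12.7% of all genes). Smarcc2 (BAF170), a scaffold subunit of the SWI/SNF core, fell from 131 ± 11.1 to 70.03 ± 9.85 CPM (SD, n = 3). Its identifier and position are ENSMUSG00000025369, plus strand of chromosome 10, 128459248 to 128490482. It was counted at 144, 126 and 124 CPM in control and 64.4, 81.4 and 64.3 CPM in OE libraries, a log2 fold change of -0.91 (edgeR adjusted p = 0.000517, SE 0.13). Smarcad1, a remodeller outside SWI/SNF that works at replication forks and DNA breaks, had 32.3, 43.6 and 40.1 CPM in control and 21.1, 16.9 and 18.2 CPM in OE libraries, a change of -1.04 (edgeR adjusted p = 0.00137, SE 0.18). Smarca5, the ATPase of the ISWI complexes, was at 138, 143 and 125 CPM in control and 112, 96.3 and 105 CPM in OE libraries, a change of -0.38 (edgeR adjusted p = 0.0269, SE 0.11). The GC offset ended this call, with a value of -0.18 (edgeR adjusted p = 0.356). Smarcb1, a core subunit and tumour suppressor, rose from 36.8 ± 2.71 to 52.8 ± 7.84 CPM (SD, n = 3), with 39.6, 34.2 and 36.4 CPM in control and 44.6, 60.2 and 53.7 CPM in OE libraries, a change of 0.52 (edgeR adjusted p = 0.0235, SE 0.15), and DESeq2 did not call it (adjusted p = 0.105).

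The alternative SWI/SNF ATPases did not pass. Smarca4 (BRG1) was counted at 181, 180.1 and 186 CPM in control and 252, 204 and 203 CPM in OE libraries (log2 fold change 0.27, SE 0.11, edgeR adjusted p = 0.0935) and Smarca2 (BRM) at 170.1, 158 and 161 CPM in control and 162, 131 and 115 CPM in OE libraries (log2 fold change -0.26, SE 0.13, edgeR adjusted p = 0.154). Every OE library lay above the control range for Smarca4, whose log2 fold change was 0.00863 with the GC offset (edgeR adjusted p = 0.97). Smarcc1, the most abundant of the family, was at 267, 272 and 291 CPM in control and 269, 198 and 209 CPM in OE libraries (log2 fold change -0.30, SE 0.12, edgeR adjusted p = 0.0921). Smarce1, Smarcd1 and Smarcd2 stood at -0.0121, 0.0278 and 0.17, and Smarcd3 had 0.75 on at most 27 counts per library (edgeR adjusted p = 0.13). Smarcal1, which remodels stalled replication forks, had a value of -0.88 (edgeR adjusted p = 0.0809).

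The chromodomain helicases had the highest share of calls, with 6 of 9 lower and 0 higher (66.7% and 0%, beside 12.7% and 16.5% of all genes). Chd1, which binds methylated H3K4 and remodels nucleosomes during elongation, was counted at 165, 183 and 172 CPM in control and 120.3, 88.9 and 96.8 CPM in OE libraries, a log2 fold change of -0.76 (edgeR adjusted p = 0.00111, SE 0.13). Its identifier and position are ENSMUSG00000023852, plus strand of chromosome 17, 15704967 to 15772610. Chd9 was at 77.9, 80.7 and 73.3 CPM in control and 51, 46 and 52.4 CPM in OE libraries (log2 fold change -0.63, SE 0.12, edgeR adjusted p = 0.00286) and Chd8, a helicase known to bind beta-catenin and restrain WNT targets, at 141, 125 and 124 CPM in control and 99.7, 78.3 and 74.4 CPM in OE libraries (log2 fold change -0.63, SE 0.13, edgeR adjusted p = 0.00418). In all of these the OE libraries lay below the control range. Chd4, the main ATPase of the NuRD corepressor and the most abundant of all members, had 441, 468 and 452 CPM in control and 391, 309 and 365 CPM in OE libraries, a change of -0.35 (edgeR adjusted p = 0.028, SE 0.11). Chd2 and Chd6 changed by -0.40 and -0.40 (edgeR adjusted p = 0.0182 and 0.0398), and DESeq2 did not call Chd6 (adjusted p = 0.0753). The exonic length offset ended the calls of Chd2, Chd4, Chd6, Chd8 and Chd9 (edgeR adjusted p from 0.0868 to 0.57) and left that of Chd1 (0.00511). Exons of Chd2 overlap 1810026B05Rik on the same strand and 4 of its 6 values were fractional, so its counts are uncertain. Chd3, the other abundant NuRD ATPase, was at 305, 316 and 293 CPM in control and 351, 298 and 306 CPM in OE libraries (log2 fold change 0.0623, SE 0.10, edgeR adjusted p = 0.688), and Chd7 and Chd5 stood at -0.12 and -0.54 (edgeR adjusted p = 0.608 and 0.392).

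Of the ARID proteins, named for a DNA-binding domain first described for AT-rich sites, 2 of 6 tested members rose and 0 fell. These shares were 33.3% and 0%, beside 16.5% and 12.7% of all genes. At an unadjusted edgeR p below 0.05, 2 members rose and 2 had lower values (Arid4a and Arid4b), and DESeq2 called none. Arid1a, the large SWI/SNF subunit most often mutated in cancers, was counted at 85.7, 73.2 and 77.4 CPM in control and 105, 97.5 and 108 CPM in OE libraries, a change of 0.39 (edgeR adjusted p = 0.0265, SE 0.12). Its alternative Arid1b was at 45.6, 45.5 and 53.4 CPM in control and 59.6, 61 and 85 CPM in OE libraries (log2 fold change 0.50, SE 0.16, edgeR adjusted p = 0.0332). OE replicate 3 was the highest library. Both calls were lost with DESeq2 (adjusted p = 0.12 and 0.0997) and when the GC offset was applied (adjusted p = 0.543 and 0.184 by edgeR). The Sin3 subunits Arid4a and Arid4b, the latter the most abundant of the family at 294, 277 and 293 CPM in control and 258, 216 and 245 CPM in OE libraries, had values of -0.27 and -0.26 (edgeR adjusted p = 0.121 and 0.0761). Arid5b and Arid3b stood at -0.0131 and 0.35.

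The balance between related members was examined within each library, where a ratio of counts does not depend on the scaling between libraries. The ratios were not adjusted for GC content or length, which moved with the fold changes. With the GC offset the log2 fold changes of Hdac1 and Hdac2 were -0.0742 and -0.45, beside 0.00751 and -0.61 without it. Those of Smarcc1 and Smarcc2 were -0.30 and -1.14, beside -0.30 and -0.91. For Smarca4 and Smarca2 they were 0.00863 and -0.38, beside 0.27 and -0.26. Of 22 pairs with both members tested, 13 had ratios that were apart between the groups. No share was computed over other gene pairs, and as single genes alone were apart in 45.7% of cases, this count is a description and is not read as particular to these pairs. With 3 libraries in each group, the smallest two-sided p of the exact permutation test is 0.1, which each of these 13 reached. Adjusted over the 22 pairs the smallest exact p was 0.169, so that no pair passed. The ratio of Hdac1 to Hdac2 counts was 0.49, 0.58 and 0.52 in the control libraries and 0.85, 0.80 and 0.79 in the OE libraries, a difference of 0.62 in log2 ratio. The ratio of Smarca4 to Smarca2 was 1.06, 1.14 and 1.15 in the control libraries and 1.55, 1.55 and 1.76 in the OE libraries (0.53 in log2 ratio), and that of Smarcc1 to Smarcc2 was 1.85, 2.16 and 2.33 in the control libraries and 4.17, 2.43 and 3.24 in the OE libraries (0.61). For Kmt2a over Kmt2b it was 4.70, 5.66 and 6.65 in the control libraries and 2.73, 2.54 and 4.02 in the OE libraries (-0.89), and for Hdac4 over Hdac5 0.92, 0.98 and 1.10 in the control libraries and 0.72, 0.59 and 0.57 in the OE libraries (-0.68). The largest difference was that of Kdm4a over Kdm4c, with 7.55, 8.32 and 9.89 in the control libraries and 22.42, 35.21 and 15.84 in the OE libraries (1.44), where Kdm4c rests on few counts. The ratio of Kat2a to Kat2b was 0.56, 0.40 and 0.73 in the control libraries and 1.44, 0.74 and 0.94 in the OE libraries (0.87). Other pairs had overlapping ratios, among them Kat6a with Kat6b (0.16), Arid1a with Arid1b (-0.10) and Arid4a with Arid4b (-0.0110).

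**Figure D3:**
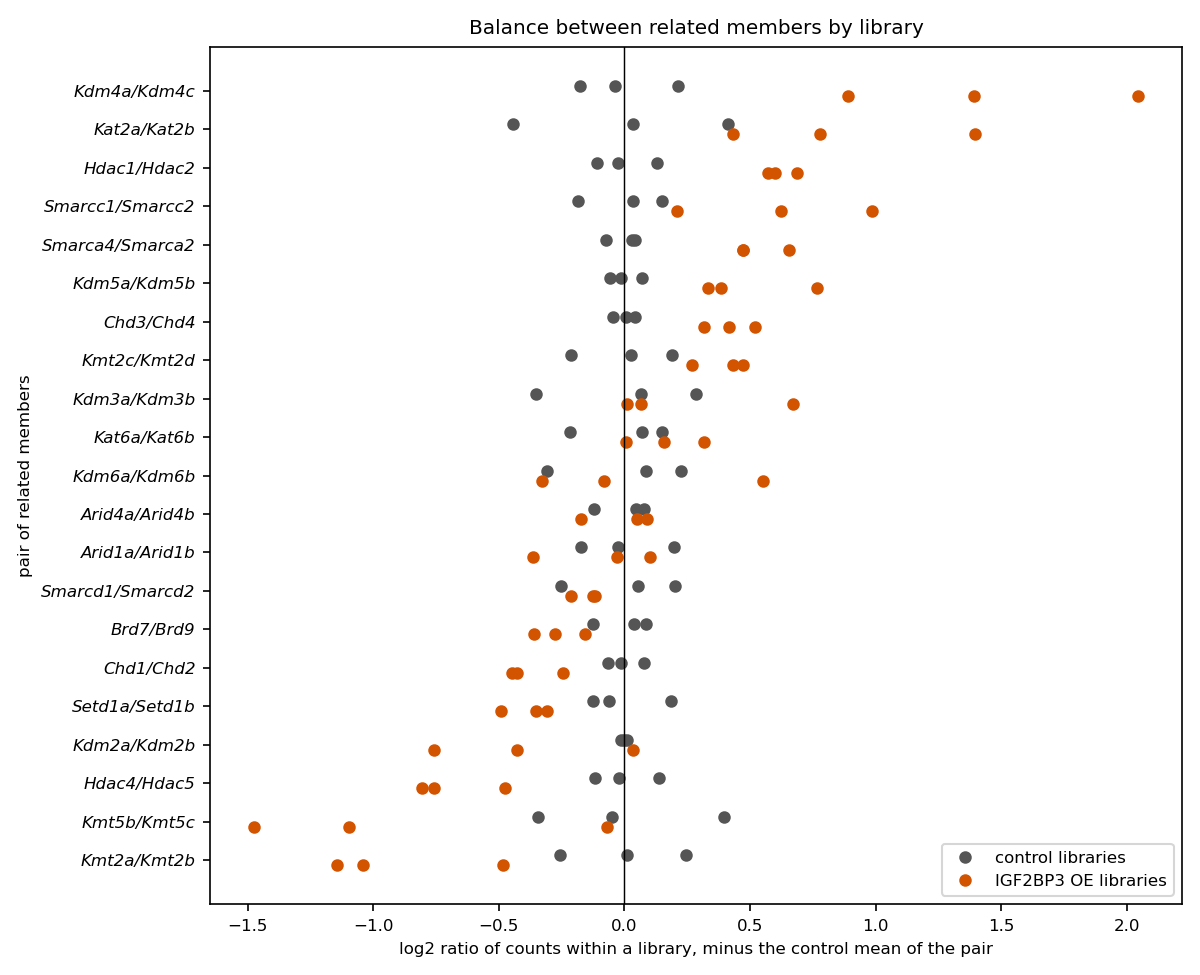
Log2 ratio of the counts of 2 related members within each library, minus the control mean of that pair (x axis), for 21 pairs (y axis); grey points are control and orange points OE libraries, 3 each. The orange points lie outside the grey range in 13 pairs, from Kdm4a/Kdm4c at the top to Kmt2a/Kmt2b at the bottom.

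Base composition and length moved with the fold changes. Across the 83 members the log2 fold change correlated with the GC content of the longest annotated transcript (Pearson's r = 0.42, Spearman's rho = 0.44) and with the logarithm of exonic length (r = -0.35, rho = -0.34). These are descriptions across genes measured in the same 6 libraries, and all tested genes gave rho = 0.37 and -0.30. Members that fell had a median GC content of 47.8%, those that rose 52.9% and those not called 52.5%. Of the 41 members below the median GC content of the group 18 fell and 2 rose, and of the 42 at or above it 6 fell and 3 rose. No such split was made over all tested genes, so these counts are not read as particular to the members. Members are long: their median exonic length was 7930 bases, against 4519.5 bases for all tested genes. With a per-library offset for GC content 25 members were lower and 2 higher (11.9% and 10.3% of all genes), with an offset for exonic length 15 and 5 (12.1% and 10.5%), and with both offsets, chosen after seeing the data, 20 and 3 (10.7% and 9.45%). The GC offset ended the calls of Arid1a, Arid1b, Hdac5, Brd8, Chd6 and Smarca5. The length offset ended those of Brd3, Brd8, Kdm6b and Smarca5 beside the 5 Chd genes. The 4 members that the GC offset added to the lower calls were Hdac6, Kmt2d, Setd1a and Smarcal1. The median of the members was -0.28, -0.15 and -0.19 under these fits, beside -0.0195, -0.0165 and -0.0116 for all tested genes. The fall of Chd1, Hdac2, Kat6a, Kat6b, Kdm1a, Kdm3b, Kdm5b, Kmt2a, Kmt5b, Smarcad1 and Smarcc2 and the rise of Kat7, 12 of the 29 calls, passed an adjusted p of 0.05 in all 20 other fits that were run.

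**Figure D4:**
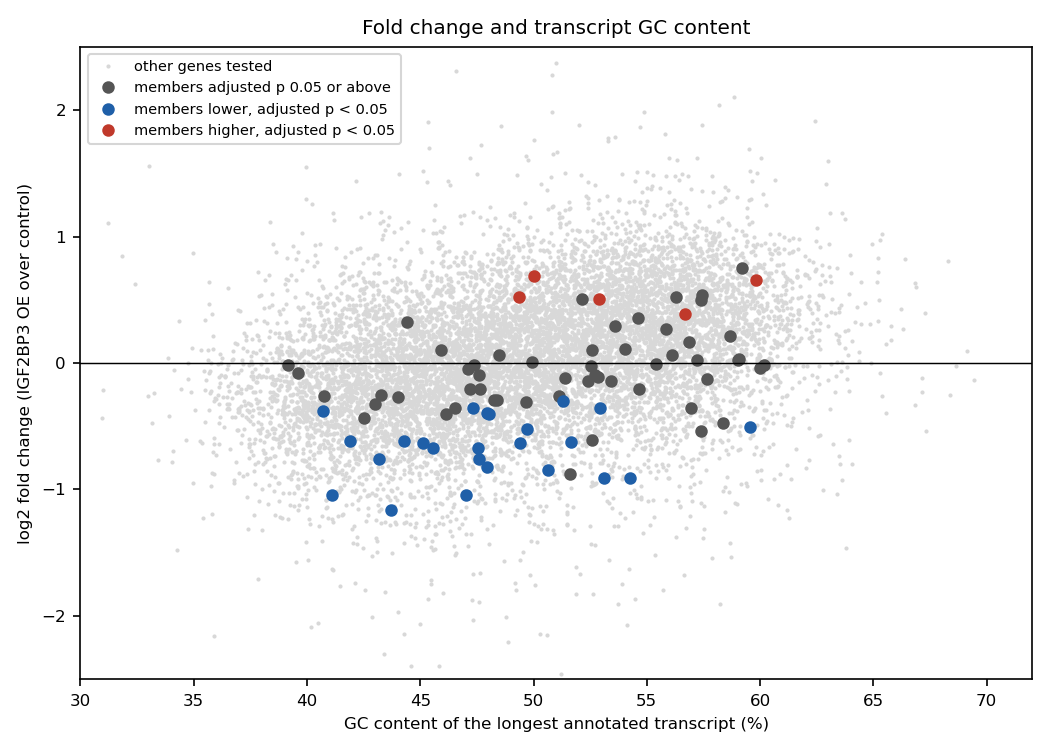
Log2 fold change (OE over control, y axis) against GC content of the longest annotated transcript (x axis, percent) for the 83 members (large points, coloured by call) and the other tested genes (light points, of which 14 lie outside the axes). Values rise with GC content in both, and 18 of the 24 members that fell lie below a GC content of 51.1%. The matching share over all tested genes was not computed.

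The libraries of the OE group varied more among themselves. The median SD of log2 CPM over the members was 0.12 among control and 0.19 among OE libraries, beside 0.15 and 0.22 over all tested genes, and the OE spread was the larger for 56 of the 83 members (67.5%, the same share as for all genes). OE replicate 1 stood apart for Kmt5a, Kat7 and Brd2, genes singled out after their values were seen. Without it 33 members were lower and 5 higher, where 15.9% and 14.8% of all genes tested were. Without OE replicate 2 the members numbered 17 lower and 3 higher (9.86% and 11.3% of all genes), and without OE replicate 3 they numbered 26 and 8 (14.5% and 18.1%). Leaving out control replicate 1, 2 or 3 gave 15, 16 and 16 lower members (7.27%, 6.91% and 6.52% of all genes) and 2 higher members each time (10%, 9.84% and 9.42%).

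Chromatin genes outside the 9 families were described from lists of 205 genes, of which 189 passed the filter: 41 fell, 17 rose, and the median log2 fold change was -0.11. The 30.7% called in either direction lay near the 29.2% of all genes tested, as did the 29.6% of the polycomb genes and the 26.7% of the NuRD and corepressor subunits. By direction, 21.7% fell and 8.99% rose, beside 12.7% and 16.5% of all genes. With the GC offset 34 of the 189 were lower and 10 higher (11.9% and 10.3% of all genes). With the length offset these counts were 28 and 11 (12.1% and 10.5% of all genes). With both offsets they were 24 and 8 (10.7% and 9.45%), with a median of -0.0789. The lower calls of the lists thus depended on these offsets. Called shares of the other lists were 64.7% (histone chaperones), 42.9% (other methyltransferases), 36.4% (DNA methylation) and 34.6% (INO80, SRCAP and TIP60-p400). They were 30% (other acetyltransferases and bromodomain proteins), 23.1% (remaining SWI/SNF), 13.3% (MLL and COMPASS), 10% (H3K9 methylation and HP1) and 0% (sirtuins). Histone chaperones, which carry histones to and from DNA, had the most calls, 10 lower and 1 higher of 17, with a median of -0.41. Among them Supt16, a FACT subunit, changed by -0.87 (edgeR adjusted p = 0.000435, SE 0.12), and Nap1l4 rose by 0.81 (edgeR adjusted p = 0.00457, SE 0.17). Subunits of the INO80, SRCAP and TIP60-p400 complexes gave 7 lower and 2 higher of 26 (median -0.22), led by the ATPase Srcap at -1.22 (edgeR adjusted p = 0.00266, SE 0.24) and by Ruvbl2 at 1.01 (edgeR adjusted p = 0.00253, SE 0.19). Exons of Srcap overlap those of 1 gene on its own strand, so its counts are uncertain.

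DNA methylation and demethylation genes gave 4 lower and 0 higher of 11, with 1 higher (Uhrf1) at an unadjusted p below 0.05 (median -0.27). The smallest p was that of Tet3, which oxidises methylcytosine, at -0.85 (edgeR adjusted p = 0.000964, SE 0.14). Other acetyltransferases and bromodomain proteins gave 5 lower and 1 higher of 20 (median -0.24), with Brwd3 at -0.81 (edgeR adjusted p = 0.00176, SE 0.15) and the acetyltransferase Naa10 at 0.44 (edgeR adjusted p = 0.0481, SE 0.15). With the GC offset this list gave 6 lower and 0 higher (median -0.25). The length offset left 3 lower and 0 higher (median -0.0287), and both offsets together left 1 lower and 0 higher (median -0.12). The call of Naa10 was lost when the GC offset was applied (adjusted p = 0.139 by edgeR) and with DESeq2 (adjusted p = 0.199). Polycomb genes gave 5 lower and 3 higher of 27 (median -0.15), with Pcgf6 at -1.27 (edgeR adjusted p = 0.000315, SE 0.17) and Cbx6 at 1.19 (edgeR adjusted p = 5.94e-05, SE 0.12). The remaining SWI/SNF subunits gave 2 lower and 1 higher of 13 (median -0.19), with Bcl7a at -1.28 (edgeR adjusted p = 0.000116, SE 0.14) and Ss18l1 at 0.91 (edgeR adjusted p = 0.0169, SE 0.25). DESeq2 did not call Ss18l1 (adjusted p = 0.0748).

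Other lists were balanced or held few calls. Methyltransferases outside the Kmt and Setd names gave 3 lower and 3 higher of 14 (median 0.15): the H3K36 enzyme Nsd1 was at -0.93 (edgeR adjusted p = 0.000201, SE 0.11) and the arginine methyltransferase Prmt1 at 1.28 (edgeR adjusted p = 0.000381, SE 0.18). NuRD and corepressor subunits gave 4 in each direction of 30 (median -0.0118), with Gps2 at 0.74 (edgeR adjusted p = 0.00154, SE 0.13) and Ing2 at -0.57 (edgeR adjusted p = 0.00989, SE 0.14). Shared subunits of the MLL and COMPASS complexes gave 1 in each direction of 15 (median 0.0829), namely Men1 at 0.54 (edgeR adjusted p = 0.0238, SE 0.16) and Psip1 at -0.46 (edgeR adjusted p = 0.0141, SE 0.12). The GC offset ended both calls (adjusted p = 0.27 and 0.143 by edgeR), and that of Men1 was also lost with DESeq2 (adjusted p = 0.115). Of 10 genes of H3K9 methylation and HP1 only Trim28 passed, at 0.43 (edgeR adjusted p = 0.00956, SE 0.11), and its call was lost when the GC offset was applied (adjusted p = 0.464 by edgeR). The median of this list without an offset was -0.12. None of 6 sirtuins was called by edgeR or DESeq2, 1 of them (Sirt2) had an unadjusted edgeR p below 0.05, and their median was 0.0626.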

How the data were processed

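RNA of 6 organoid libraries was sequenced from the 3′ ends of transcripts with a QuantSeq forward kit, per the labels' protocols, so that counts do not scale with transcript length. The deposited table holds estimated counts per Ensembl gene: the authors aligned with STAR and counted with HTSeq on mm10 (GRCm38), per the submitters' processing notes. Handling of strand, multiple alignments and molecular identifiers, and the annotation used, are not given in the sources used here. Of the values, 2838 in 1034 genes were fractional (further than 0.01 from a whole number), and all were rounded to whole numbers.

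Genes were filtered with filterByExpr (10687 kept), scaled by TMM and tested with edgeR 4.0.16 (R 4.3.3, glmQLFit and glmQLFTest, Benjamini-Hochberg over all genes kept), 3 OE against 3 control libraries, and called at an adjusted p below 0.05. Standard errors were derived from the log2 fold change and its test statistic. Within-library ratios had 0.5 counts added to each gene and were compared by two-sided exact permutation tests with SciPy 1.17.1. Positions, exonic lengths and GC contents were taken from the GENCODE M21 annotation of GRCm38, which held 51989 IDs (99.5%). The floor is 3 counts and covers counting error only. Alternatives were DESeq2 1.42.0, limma-voom 3.58.1, other scalings and filters, offsets for GC content and exonic length (loess, span 0.5), a replicate block, protein-coding genes only, equal depth and leaving out each library. The fit was tested on simulated data.

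Members and lists were chosen with earlier results of these data known. The rule for genes given in full took, in each family, up to 2 higher and 2 lower calls with the smallest p, the most abundant member, and the members of the 6 pairs with the largest ratio differences that did not overlap, and in each list 1 gene called in each direction; other members are given more briefly. The values of 1 tested member, and of the pair it belongs to, are included in the counts but not reported here.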

Additional observations from a re-analysis of the deposited data

How the results depend on the processing

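Lower calls outnumbered higher calls among the members in each of the 20 other fits and at the stricter threshold. The median of the members was below 0 in each of these fits, ranging from -0.29 to -0.15. Calls over all genes fell from 3118 to 1972 with DESeq2 and to 1578 at an adjusted p below 0.01, and ranged from 1748 to 3532 when 1 library was left out. Higher members numbered 2 with DESeq2 (9.7% of all genes higher), with the GC offset (10.3%), with the replicate block and GC offset together (10.6%) and at 0.01 (8.83%), 3 with protein-coding genes only (14.2%) or with both offsets (9.45%), and 2 to 8 with 1 library left out (9.42% to 18.1%). Lower members numbered 15 with the length offset (12.1% of all genes lower) and at 0.01 (5.93%), and 15 to 33 with 1 library left out (6.52% to 15.9%). The median moved to -0.28 with the GC offset, -0.28 with block and GC offset, -0.26 with protein-coding genes only, and -0.29 to -0.18 with 1 library left out. The causes were not tested. Higher calls made up 56.6% of all calls, against 49.9% with DESeq2 size factors, 63.8% with library totals and 46.5% with the GC offset. With library totals 7 members were higher and 20 lower, beside 19% and 10.8% of all genes.

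Adding the replicate number as a block gave 3112 calls, among them 5 higher and 24 lower members (16.2% and 12.9% of all genes), and 23 of the lower members were the same. Same-numbered libraries deviated together with correlations of 0.0975, 0.0181 and 0.0695, and differently numbered ones with -0.11 to 0.0424. All were small and the numbers were not taken as a pairing, a point that these values do not settle.

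Of 714 values of the 34 members named by rule, 601 kept direction and side of the threshold, 64 lost the call, 12 gained it and 37 turned in sign, all of the last in members that were not called. Arid4b (-0.26) was 0.14 with both offsets and 0.000786 with the length offset. Hdac1 (0.00751) was -0.0360 with DESeq2 size factors, -0.0280 with DESeq2, -0.14 with both offsets, -0.0742 with the GC offset, -0.15 with the length offset, -0.0271 with no count filter, -0.0539 with protein-coding genes, -0.0726 with block and GC offset, -0.0481 with no mitochondrial genes and -0.0613 to 0.0644 with 1 library left out. Hdac4 (-0.0200) was 0.00624 with both offsets, 0.23 with the length offset, 0.0276 with library totals and -0.16 to 0.0125 with 1 library left out. Hdac7 (-0.0149) was 0.0258 with the length offset, 0.0326 with library totals and -0.16 to 0.0835 with 1 library left out. Kmt2b (0.0317) was -0.0103 with DESeq2 size factors, -0.00208 with DESeq2, -0.15 with both offsets, -0.26 with the GC offset, -0.000991 with no count filter, -0.0292 with protein-coding genes, -0.26 with block and GC offset, -0.0236 with no mitochondrial genes and -0.0883 to 0.15 with 1 library left out. Kmt2e (0.10) was -0.0129 to 0.16 with 1 library left out. Those between groups that turned, always with 1 library left out, were log2 ratio Arid1a/Arid1b (-0.20 to 0.0357), log2 ratio Kdm6a/Kdm6b (-0.21 to 0.23) and log2 ratio Arid4a/Arid4b (-0.0718 to 0.0697).

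Precision was limited by 3 libraries a group and, for members such as Kdm4c, Kat2a, Kat8 and Smarcd3, by low counts. Ratios of 3 against 3 libraries cannot pass the adjusted threshold. The library series and the groups cannot be told apart, and the Igf2bp3 counts gave no check of the label.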
